A study of Strongylocentrotus purpuratus with 4 samples.

Results

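Skeletogenic mesenchyme cells of the purple sea urchin Strongylocentrotus purpuratus were taken as cells that carried at least 5 unique molecular identifiers (UMIs, counts of separate captured transcripts) summed over SM37, SM50, PM27 and msp130. Cells were considered where they had 400 to 2500 genes detected, and 93 of 15698 such cells in 4 single-cell libraries met the rule. The libraries came from embryos injected with a morpholino antisense oligonucleotide (MO) against gcm and collected at 48 hours post fertilization (hpf), from embryos given a control MO and collected at 48 hpf, and from uninjected embryos at 72 hpf and at 48 hpf. The gcm MO blocks translation of the transcription factor that pigment cells need, and the control MO was one designed against a gene of the sea star Patiria miniata. Both MO libraries were made from whole gastrulae of pooled injected embryos, chosen for the expected phenotype. Both uninjected libraries were instead enriched for ectoderm during dissociation. The MOs were injected at 0.5 mM, both MO libraries shared a sequencing lane, and each uninjected library had a lane of its own. Every embryo came from wild adults, and there was 1 library for each condition, so condition and library, and injection, dissociation and lane where they differ, cannot be told apart and no test between conditions was possible.

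Skeletogenic cells descend from the micromeres of the early embryo, enter the blastocoel as primary mesenchyme, fuse into a syncytium and build the calcite endoskeleton. The mineral is deposited within a membrane-bound space together with spicule matrix proteins, among them SM37, SM50, PM27 and SM30, while msp130 is an abundant glycoprotein on the surface of the same cells. A regulatory network that includes Alx1, an ETS family pair of factors and several others establishes the lineage, and signals from the overlying ectoderm shape where the skeleton grows. Because the uninjected samples were enriched for another tissue, the number of skeletogenic cells in an uninjected library is not the number in an embryo.

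The skeletogenic cells contributed 7394 UMIs in the gcm MO library, 162453 in the control MO library, 58057 at 72 hpf and 96621 at 48 hpf. Their median depth per cell was 3697, 3058, 3558 and 4560 UMIs in that order, against 3831, 2683, 1482 and 3056 UMIs in the other kept cells of the same libraries. The gcm MO library held 2 skeletogenic cells among 539 kept cells, so its values describe those 2 cells. The gcm transcript gives no check of a translation-blocking MO. It had 10 UMIs in the other kept cells of the gcm MO library (5.51 counts per 1000000 UMIs, CPM), against 257 (28.1 CPM) in those of the control MO library. No skeletogenic barcode was shared between libraries as a skeletogenic cell, and 1 barcode of a control MO skeletogenic cell also occurred among the kept cells of each uninjected library.

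The cells were chosen by the counts of 4 genes, which are given as a description only. SM37 had 28 UMIs in the gcm MO library, 400 in the control MO library, 406 at 72 hpf and 808 at 48 hpf. SM50 had 57, 504, 444 and 770 UMIs in the same order, and PM27 had 39, 633, 483 and 970. For msp130 the counts were 26, 473, 153 and 217 UMIs. Together the 4 genes made up 2.03%, 1.24%, 2.56% and 2.86% of the UMIs of skeletogenic cells, against 0.0014% to 0.0030% in the other cells of a library. SM50 was detected in all 93 cells, SM37 and PM27 in 90 each and msp130 in 85. Msp130 supplied 17.3% of the rule-gene UMIs in the gcm MO cells, 23.5% in the control MO cells, 10.3% at 72 hpf and 7.85% at 48 hpf.

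**Figure D1:**
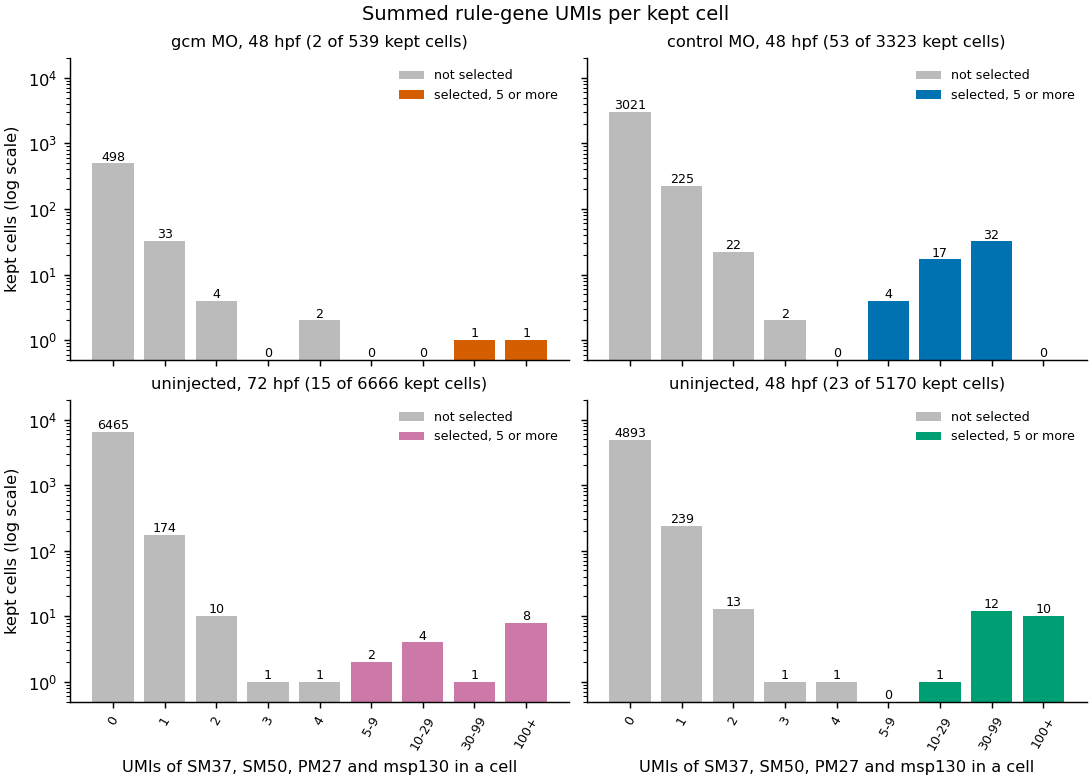
Number of kept cells (log scale) by summed UMIs of SM37, SM50, PM27 and msp130, 1 panel per library, with selected cells in colour and all others in grey. In every library nearly all kept cells had 0 or 1 UMI, and cells with 3 or 4 UMIs, just under the limit of 5, numbered at most 2 per library.

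Few cells lay near the limit. With 3 or 4 rule-gene UMIs there were 2 cells in the gcm MO library, 2 in the control MO library, 2 at 72 hpf and 2 at 48 hpf, and 6 selected cells had 5 to 9 UMIs, namely 4 of the control MO library and 2 of the 72 hpf library. Cells with 30 or more rule-gene UMIs numbered 65 and those with 10 to 29 numbered 22. SM30A, a spicule matrix gene that the rule did not use, was at 85486 CPM in the cells with 30 or more, at 48513 CPM in those with 10 to 29 and at 4460 CPM in those with 5 to 9, which were also shallower, with a median of 717.5 UMIs against 3562 and 2665. It was at 73.6 CPM in the 728 kept cells with 1 to 4 rule-gene UMIs and at 45.3 CPM in the 14877 with none. Cells with 1 to 4 UMIs therefore lay near the cells with none. The pooled steps among selected cells mixed libraries and kinds of cell. In the control MO library SM30A was at 75507 CPM in the 32 cells with 30 or more rule-gene UMIs and at 75618 CPM in the 17 with 10 to 29, whereas at 72 hpf it was at 80775 CPM in 9 cells and at 2387 CPM in 4. Of the 6 cells with 5 to 9, 3 control MO cells had 11, 21 and 23 SM30A UMIs, and the other control MO cell and both 72 hpf cells had 0, 3 and 0. The summed level of the aboral ectoderm markers was 1673, 6775 and 7843 CPM in the 3 selected classes, against 17140 CPM in cells with 1 to 4 UMIs and 16919 CPM in cells with none. Of the 454 marker UMIs in the 10 to 29 class, 376 were in a single 48 hpf cell, and 83 of the 102 in the 5 to 9 class were in the 2 cells of 72 hpf. Within the control MO library the 3 classes were at 1752, 1133 and 3524 CPM.

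Outside the rule genes, the profile of skeletogenic cells was compared with that of the other kept cells of the same libraries by summing UMIs over each set of cells in each library. Of 6912 genes tested by edgeR's quasi-likelihood test with Benjamini-Hochberg adjustment, 588 were higher and 1515 lower in skeletogenic cells at an adjusted p under 0.05. The background against which any gene list must be read was thus 8.51% higher and 21.9% lower. Genes nearly absent from other cells passed the filter on low counts only if skeletogenic cells of all 4 libraries carried them. This held for Alx1, GATAc, MMP16, COLP4alpha (gene3279) and the identifiers with the highest ratios. The share called higher is thus partly fixed by the filter. The median log2 ratio over all genes was -0.64. With DESeq2's size factors in place of the trimmed mean of M values the median became -1.14 and the split became 514 higher and 2646 lower, so a gene's ratio is best read against those medians. Without the control MO library the counts were 298 and 368, and without the 48 hpf library they were 279 and 474. Without the gcm MO library 11594 genes were tested, of which 715 were higher and 1769 lower.

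SM30A was the transcript with the most UMIs in the skeletogenic cells of all 4 libraries. It had 923 UMIs in the 2 gcm MO cells, 11919 in the control MO cells, 2600 at 72 hpf and 8769 at 48 hpf, which was 12.5%, 7.34%, 4.48% and 9.08% of all UMIs in those cells. In the other kept cells it made up 0.0037%, 0.0097%, 0.0020% and 0.0043% of UMIs in the same order. The log2 ratio over all libraries was 10.41 ± 0.90 (SE, n = 4 libraries, adjusted p = 1.11e-28 by edgeR). Here and below the SE rests on a dispersion shared across genes, not on a gene's own spread between libraries. The smallest of the 4 ratios was 758 (95% interval 708 to 812) in the control MO library. SM30A was detected in 89 of the 93 skeletogenic cells. A UMI of SM30A was also present in 11.0%, 22.9%, 4.09% and 11.3% of other kept cells, so a single UMI of this gene does not mark a skeletogenic cell.

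SpP19L, a relative of the cytoplasmic biomineralization protein P19, followed SM30A. It had 106, 1859, 343 and 1045 UMIs in the skeletogenic cells of the gcm MO, control MO, 72 hpf and 48 hpf libraries, against 24, 192, 390 and 195 UMIs in all other kept cells. Its log2 ratio was 8.74 ± 0.81 (SE, adjusted p = 5.78e-25 by edgeR). Both members of the biomineralization list that could be tested were therefore higher, against 8.51% over all tested genes. P16, a small transmembrane protein needed for spicule growth, and SM29, another matrix protein, were left out of the test. The filter on low counts asks for a minimum level in enough of the library sums, and neither gene had a UMI in the gcm MO cells. P16 had 0, 72, 39 and 29 UMIs in skeletogenic cells and 11 in all other kept cells together. It was found in 39 of the 93 cells, with up to 23 UMIs in 1 cell. SM29 had 0, 8, 0 and 16 UMIs in skeletogenic cells and 1 UMI elsewhere.

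Of 7 skeletogenic regulators in the files, 4 could be tested, and 3 were higher and 1 lower in skeletogenic cells. Over all tested genes 8.51% were higher and 21.9% lower. Alx1 passed the filter on low counts only through the skeletogenic sums, so its call is partly fixed by the filter. Alx1, the homeodomain factor at the head of skeletogenic specification, had 5, 140, 10 and 93 UMIs in the gcm MO, control MO, 72 hpf and 48 hpf skeletogenic cells, against 4, 18, 20 and 33 in all other kept cells. It was detected in 72 of 93 cells and its log2 ratio was 7.97 ± 0.76 (SE, adjusted p = 1.07e-23 by edgeR). The ETS factor erg had 3, 87, 4 and 60 UMIs in skeletogenic cells and 22, 111, 152 and 213 in other cells, a log2 ratio of 4.54 ± 0.67 (adjusted p = 7.19e-10). Both genes thus had UMIs in other cells, and erg had more of them than Alx1. At 72 hpf the erg ratio was 6.59 (95% interval 1.77 to 17.2), against 44.6 (32.9 to 59.6) at 48 hpf. Sp-Smad2/3, a transducer of TGF-beta signals, had 2, 38, 11 and 24 UMIs and a log2 ratio of 1.44 (adjusted p = 0.036), a call lost without the control MO library (adjusted p = 0.23) or the 48 hpf library (adjusted p = 0.36).

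The ARID factor dri, which belongs to the early skeletogenic network and is later a gene of the oral ectoderm, was lower in skeletogenic cells. It had 1, 24, 11 and 10 UMIs in them, that is 135, 148, 189 and 103 CPM, against 842, 1053, 189 and 773 CPM in other cells. The log2 ratio was -2.34 ± 0.64 (SE, adjusted p = 0.0023 by edgeR), with adjusted p = 0.095 without the control MO library and 0.12 without the 48 hpf library. At 72 hpf the ratio was 1.00 (95% interval 0.499 to 1.80), where dri was low in the other cells and all 11 UMIs lay in selected cells without an msp130 UMI. Of the regulators left out by the filter on low counts, ets1 had 3 UMIs in skeletogenic cells and snail had 9 UMIs in 8 cells. PMAR1, a repressor of the cleavage stage micromeres, had none.

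Collagens and matrix-remodelling genes also included large ratios. Of 8 tested members 5 were higher and none was lower, against 8.51% and 21.9% over all tested genes. MMP16 and COLP4alpha (gene3279) passed the filter on low counts only through the skeletogenic sums, so this count is partly fixed by the filter. COLP3alpha had 107, 3308, 371 and 1503 UMIs in the gcm MO, control MO, 72 hpf and 48 hpf skeletogenic cells, against 231, 1560, 133 and 970 in all other kept cells, and a log2 ratio of 7.37 ± 0.79 (SE, adjusted p = 9.31e-19 by edgeR). The 2 genes annotated as COLP4alpha had 63, 887, 164 and 732 UMIs (gene26446, log2 ratio 7.83 ± 0.78) and 5, 58, 34 and 66 UMIs (gene3279, log2 ratio 7.84 ± 0.73), and reads that fit both could have been split between them. MMP16, a membrane-type matrix metalloproteinase, had 3, 21, 4 and 18 UMIs in skeletogenic cells and 0, 0, 5 and 2 in others, a log2 ratio of 9.45 ± 0.75. SPARC (gene2694), which encodes a calcium-binding protein of the matrix, had 7, 92, 120 and 145 UMIs. Its log2 ratio of 1.65 (adjusted p = 0.033) was not called without the control MO (0.095), 72 hpf (0.42) or 48 hpf (0.35) library, and the ratio ran between 1.31 (1.06 to 1.62) in the control MO library and 21.6 (17.8 to 26.1) at 72 hpf.

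The collagens COLP1alpha and COLP2alpha did not share this pattern. COLP1alpha had 0, 39, 193 and 2 UMIs in skeletogenic cells, of which 184 at 72 hpf lay in 1 cell and 35 in the control MO library lay in another, and its log2 ratio was 0.03 (adjusted p = 0.98 by edgeR). COLP2alpha had 0, 10, 65 and 0 UMIs, and the 65 were in a single cell of the 72 hpf library. BMP1, a procollagen proteinase, had 2, 36, 6 and 10 UMIs and was not called (log2 ratio 0.16).

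Among signalling genes, 1 of 6 tested was higher and 2 were lower, against 8.51% and 21.9% over all tested genes. FGF, a fibroblast growth factor ligand, had 12, 398, 191 and 298 UMIs in the gcm MO, control MO, 72 hpf and 48 hpf skeletogenic cells, which was 1623, 2450, 3290 and 3084 CPM, against 96.4, 173, 78.7 and 127 CPM in other kept cells. The log2 ratio was 4.10 ± 0.66 (SE, adjusted p = 1.71e-08 by edgeR), and 68 of 93 cells had a UMI. Its receptor FGFR was lower, with 0, 11, 8 and 4 UMIs and a log2 ratio of -2.53 ± 0.64 (adjusted p = 8.92e-04; 0.059 without the 48 hpf library). FGFRL1, a receptor relative without a kinase domain, had 0, 4, 1 and 2 UMIs and a log2 ratio of -2.50 (adjusted p = 0.0047), which was not called without the control MO (0.083) or 48 hpf (0.092) library. The ligand and its receptor were thus on opposite sides of the contrast. The ligands BMP2/4 (1, 25, 1 and 3 UMIs) and DVR1 (2, 25, 2 and 21 UMIs) were not called, and Wnt8 and hh had no UMI in skeletogenic cells.

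GATAc, a zinc finger transcription factor listed with blastocoelar cells, was higher in skeletogenic cells, with 3, 116, 1 and 10 UMIs against 11, 42, 14 and 48 in all other kept cells and a log2 ratio of 5.61 ± 0.75 (SE, adjusted p = 3.69e-12 by edgeR). It was found in only 22 of the 93 cells, and 15 had 2 or more UMIs. Its 1 UMI at 72 hpf was in a cell of 9936 UMIs without SM30A or msp130, described below. GATAc was tested only because skeletogenic cells of all 4 libraries carried it. The call is thus partly fixed by the filter on low counts. Adv, listed with the actin-binding genes, had 2, 76, 4 and 25 UMIs and a log2 ratio of 3.84 ± 0.64 (adjusted p = 7.51e-08), whereas the actin-bundling gene FSCN1 had 13, 215, 54 and 124 UMIs and was not called (log2 ratio -0.39).

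Of 5 ion carriers tested, 2 were higher and none was lower, against 8.51% and 21.9% over all tested genes. NBC, a sodium bicarbonate cotransporter of the kind that supplies carbonate to the mineral, had 3, 17, 31 and 48 UMIs, or 406, 105, 534 and 497 CPM, against 52.3, 36.6, 227 and 110 CPM in other kept cells. Its log2 ratio was 1.55 ± 0.57 (SE, adjusted p = 0.026 by edgeR), not called without the control MO (0.16) or 48 hpf (0.34) library, although NBC lay above the other cells in all 4 libraries. SLC12A2, a sodium, potassium and chloride cotransporter, had 1, 16, 7 and 17 UMIs and a log2 ratio of 1.72 ± 0.56 (adjusted p = 0.011; 0.13 and 0.29 without those libraries). The calcium pumps PMCA (log2 ratio 0.47), SERCA (-0.78) and SPCA (0.54) were not called. Of 12 genes of the secretory pathway, 1 was higher and 1 lower, shares no greater than those over all genes, and the endoplasmic reticulum chaperones calret and ECaSt/PDI had log2 ratios of 0.33 and 1.28 that did not pass the test.

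The genes with the largest ratios were mostly locus identifiers without a gene name in the files. Of the 20 highest ratios among genes higher in all 4 libraries with at least 20 UMIs, 19 belonged to such identifiers and 1 was SM30A, in 16th place. These 19 passed the filter on low counts only through the skeletogenic sums, so their high ratios are partly fixed by it. LOC576354 had 23, 330, 328 and 815 UMIs in gcm MO, control MO, 72 hpf and 48 hpf skeletogenic cells, against 0, 38, 32 and 38 in all other kept cells, and was found in 78 of the 93 cells. LOC579383 had 34, 516, 28 and 252 UMIs against 4, 27, 4 and 9, and was found in 76 cells. LOC591784 had 4, 134, 45 and 64 UMIs against 0, 5, 2 and 2 (59 cells), and LOC575093, which had the highest ratio, had 1, 20, 8 and 49 UMIs against 0, 0, 0 and 2 (34 cells). Their fitted log2 ratios were 10.79, 10.58, 11.48 and 11.88 in this order, each with an SE of 0.85 to 0.93, so their order among themselves is not resolved. The other 15 were LOC576710, LOC105437206, LOC586619, LOC582450, LOC100888659, LOC100888361, LOC100891764, LOC105443959, LOC100892256, LOC100889665, LOC586737, LOC592147, LOC100888726, LOC580824 and LOC579101.

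**Figure D2:**
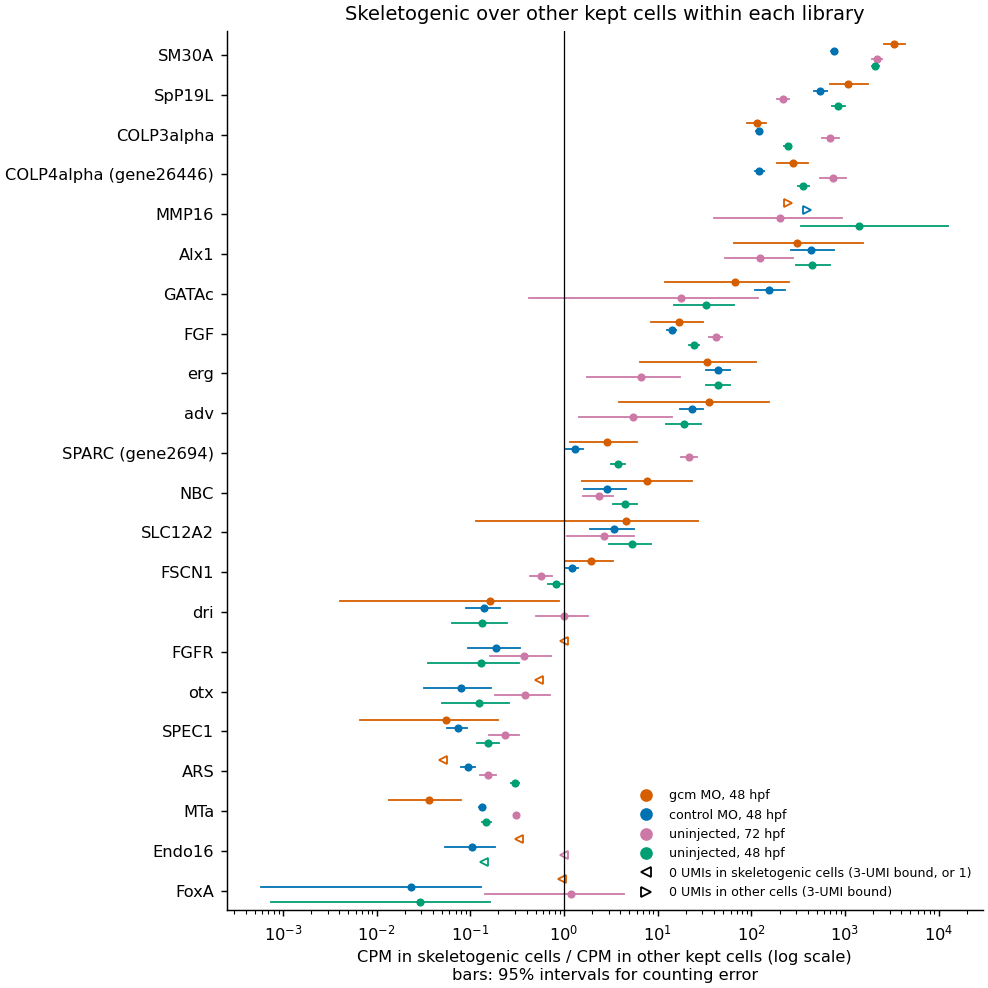
Ratio of the level in skeletogenic cells to that in other kept cells of the same library (log scale, CPM over CPM), with 1 point per library and bars for 95% counting intervals. The plotted matrix genes, the collagens COLP3alpha and COLP4alpha (gene26446), Alx1, FGF and erg lie right of 1 in all 4 libraries. The ectoderm genes ARS, SPEC1 and otx and the metallothionein MTa lie left of 1 in all 4. COLP1alpha and COLP2alpha are not plotted.

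Markers of other cell types were lower as a group. Of 22 tested markers of pigment, gut, ectoderm, neural and germline cells, 18 were lower and none was higher, with 9 lower when the control MO library was left out and 11 when the 48 hpf library was. The share called lower over all tested genes was 21.9%. The gut markers Endo16 (0, 12, 0 and 0 UMIs) and FoxA (0, 1, 2 and 1) had log2 ratios of -4.36 ± 0.83 and -4.14 ± 0.86 (SE, adjusted p = 5.05e-06 and 3.28e-05 by edgeR), and 10 of the 12 Endo16 UMIs were in 1 cell. The polyketide synthase pks1 (LOC588806), which makes the pigment of pigment cells, had 0, 8, 1 and 41 UMIs, 38 of them in 1 cell of the 48 hpf library, and a log2 ratio of -2.67 ± 0.69 (adjusted p = 0.0011; 0.065 without the control MO library). The gene gcm had 1 UMI in the 93 cells.

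Among the marker lists of other cell types, that of aboral ectoderm had the most UMIs in skeletogenic cells, 965 in all. The same list also had the highest level in other kept cells, at 16931 CPM. ARS, an arylsulfatase of aboral ectoderm, had 0, 144, 99 and 451 UMIs in the gcm MO, control MO, 72 hpf and 48 hpf skeletogenic cells, against 8015, 9310, 11002 and 15415 CPM in other kept cells and 886, 1705 and 4668 CPM in the skeletogenic cells of the last 3 libraries. In the gcm MO library ARS was at least 19.8-fold lower at a floor of 3 UMIs. SPEC1, a calcium-binding protein of the same tissue, had 2, 69, 31 and 57 UMIs. Their log2 ratios were -3.38 ± 0.68 and -3.37 ± 0.65 (SE, adjusted p = 1.80e-05 and 6.77e-06 by edgeR). Of the 451 ARS UMIs at 48 hpf, 344 were in 1 cell. Over the whole aboral ectoderm list the summed level was 1082 to 5537 CPM in skeletogenic cells of a library and 14167 to 20175 CPM in other cells. Whether free RNA or mixed droplets carried these transcripts was not tested.

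Cell cycle genes were lower, with 19 of 24 called and none higher (10 without the control MO library, 8 without the 48 hpf library). Over all tested genes 21.9% were called lower. The study drew this list from cells of the same libraries, so it is not independent evidence of its direction. Their summed level was 406, 782, 913 and 776 CPM in the gcm MO, control MO, 72 hpf and 48 hpf skeletogenic cells, against 3555, 3792, 3031 and 3828 CPM in other kept cells, and the median log2 ratio of the list was -2.63 against -0.64 for all genes. The metallothionein MTa was present in all 93 skeletogenic cells, with 6, 698, 1481 and 387 UMIs, and was lower than in other cells by -3.21 ± 0.69 on the log2 scale (SE, adjusted p = 6.49e-05 by edgeR; 0.053 without the control MO library). A second metallothionein, MTB1, had 0, 50, 118 and 101 UMIs and was not called. Of 7 translation genes, 2 ribosomal protein genes were called lower, a share near the 21.9% over all tested genes. They were rps14 with 7, 190, 86 and 103 UMIs (log2 ratio -1.52, adjusted p = 0.038 by edgeR) and rpl36 with 10, 149, 90 and 100 (-1.58, adjusted p = 0.029). Neither call remained without the control MO, 72 hpf or 48 hpf library, where adjusted p ran from 0.072 to 0.23.

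The 10 lowest ratios among genes lower in all 4 libraries also belonged to unnamed identifiers. LOC577036, LOC579012, LOC577229 and LOC591797 had no UMI in any skeletogenic cell and were at least 7.26-, 7.07-, 6.74- and 6.81-fold lower at a floor of 3 UMIs. LOC576506, LOC100888115, LOC576524, LOC100893195, LOC589852 and LOC763627 had 1 or 2 UMIs. By edgeR, LOC577036 was not called when the upper limit on genes was dropped (adjusted p = 0.10), nor LOC591797 without the control MO library (adjusted p = 0.065).

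The 93 cells were not uniform. SM30A ranged from 0 to 826 UMIs per cell with a median of 246. In 80 cells it made up 1% or more of UMIs, and the other 13 fell below that. These groups were noticed in the data and are described without a test. The 13 cells were of different kinds, since some were rich in the rule genes and others had few of any skeletogenic transcript.

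**Figure D3:**
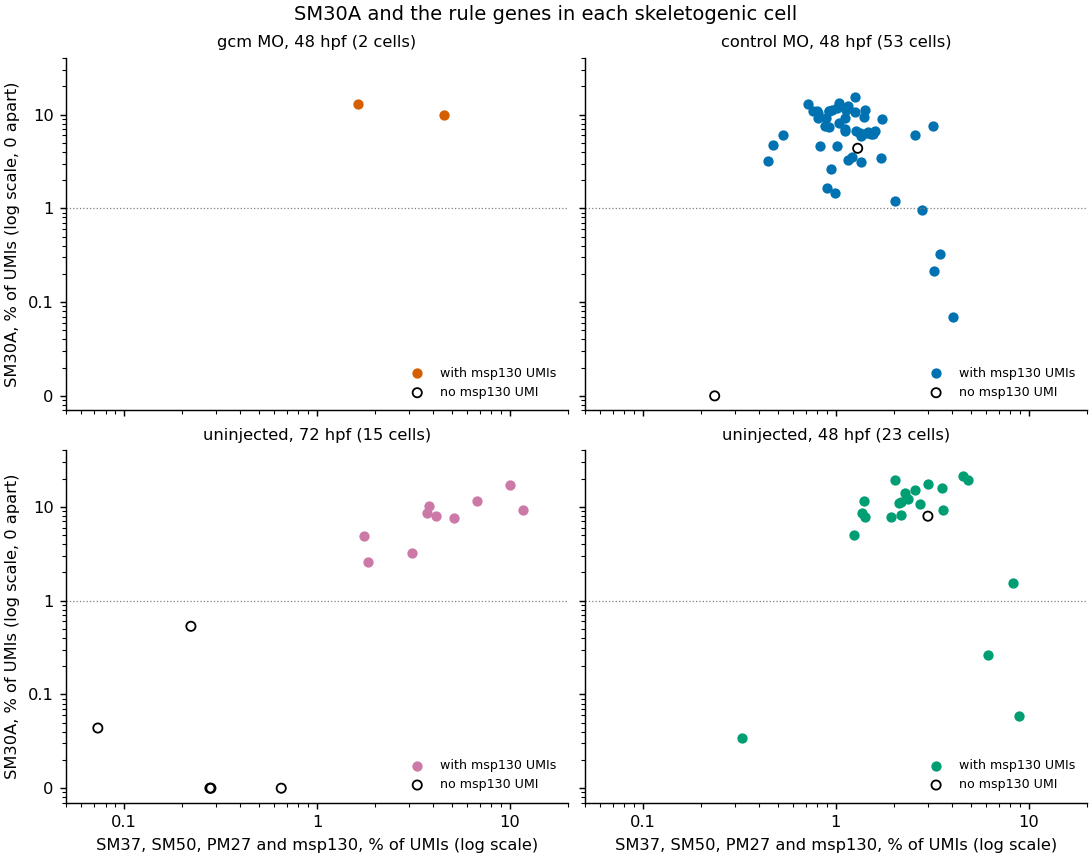
SM30A against the summed rule genes in each of the 93 skeletogenic cells, both as a percentage of the cell's UMIs (log scales, with cells without SM30A set at 0), 1 panel per library and open symbols for cells with no msp130 UMI. Most cells lie above 1% SM30A, with a tail at high rule-gene and low SM30A percentages in the control MO and 48 hpf libraries and a set low in both at 72 hpf.

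A first group had SM30A under 2% and rule genes above 2% of UMIs, and held 8 cells, 5 from the control MO library and 3 from the 48 hpf library. It was set beside the 64 cells of these libraries with SM30A at 2% or more. Summed over cells, SM30A had 128 UMIs in the group and 20504 in the comparison cells, a difference that the choice of cells fixed, as it did for the rule genes. The SpP19L level in the group was 0.88 times that in the comparison cells (95% interval 0.77 to 1.00) and the Alx1 level 1.32 times (0.86 to 1.96). COLP3alpha was at 0.59 (0.52 to 0.67). LOC576354 had 1 UMI in the group and 1134 in the comparison cells, and LOC579383 had 3 and 743. Conversely, LOC577676 had 103 UMIs in 7 of the 8 cells and 2 UMIs in 2 of the 64, a ratio of 475 (128 to 3974). Outside these cells it reached 10 UMIs in the 48 hpf skeletogenic cell rich in ARS, 4 in a 72 hpf skeletogenic cell and at most 5 in any cell that was not skeletogenic. Metallothionein MTB1 (83 UMIs, 70 in 1 cell) and pks1 (LOC588806, 39 UMIs, 38 in 1 cell) were each carried by a single cell of the group.

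A second division ran along GATAc and FGF, and was seen only in the control MO library. No cell of another library had 2 or more GATAc UMIs and fewer than 2 of FGF. Of its 53 skeletogenic cells, 11 had 2 or more GATAc UMIs and fewer than 2 of FGF, 33 had the opposite, and 2 had 2 or more of both. The GATAc cells had a median of 2976 UMIs and the FGF cells 3353. GATAc itself had 107 UMIs in the 11 GATAc cells and 2 in the 33 FGF cells, and FGF had 1 and 386.

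**Figure D4:**
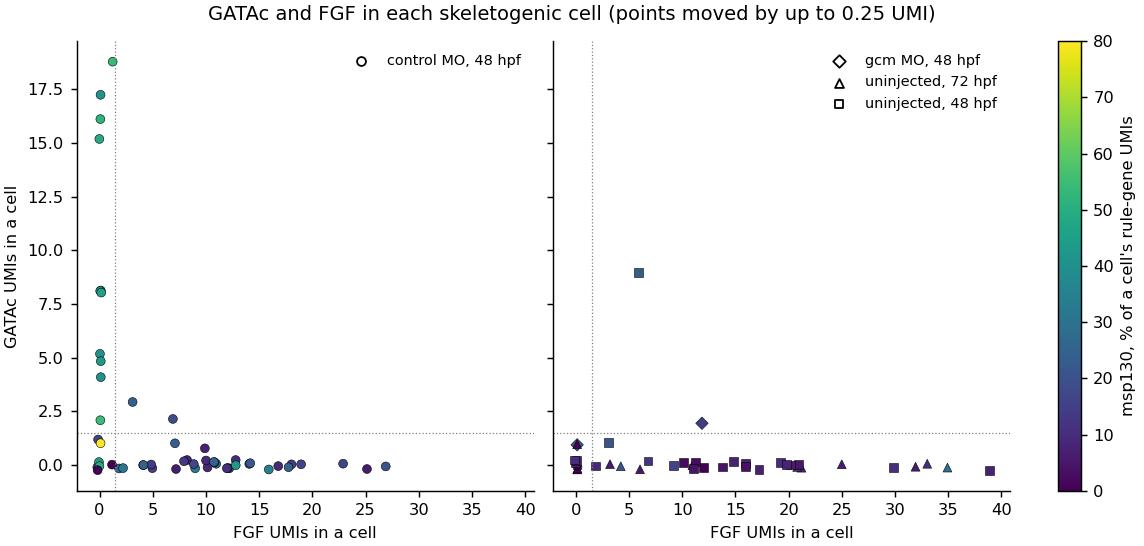
GATAc against FGF UMIs in each skeletogenic cell, with the control MO library on the left and the other 3 libraries on the right, coloured by the percentage of rule-gene UMIs that were msp130. Control MO cells lie along one axis or the other with few in between, and the cells on the GATAc axis have the higher msp130 percentages.

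Other genes differed along the same division. BMP2/4, a ligand that patterns the aboral side of the embryo, had 24 UMIs in 10 of the 11 GATAc cells and none in the 33 FGF cells, at least 27.5-fold higher at a floor of 3 UMIs. Tbx2/3, a T-box factor of aboral territories, had 37 UMIs against 8, a ratio of 15.9 (95% interval 7.29 to 39.5), and DVR1 had 16 against 9, a ratio of 6.11 (2.54 to 15.7). As a description of a selecting gene, msp130 made up 45.6% of the rule-gene UMIs in GATAc cells and 17.7% in FGF cells. P16 was 2.67-fold higher (1.57 to 4.51) and erg 1.90-fold (1.13 to 3.13). SM30A was at 0.55 (0.52 to 0.58) of the level in FGF cells, whereas Alx1 (0.88, 0.54 to 1.37) and COLP3alpha (1.04, 0.95 to 1.13) had intervals that included 1. Among the highest-ratio genes, LOC100888659 had 0 UMIs in GATAc cells and 127 in FGF cells, LOC576710 had 0 and 104, and LOC100892256 had 0 and 58, which made them at least 12.3-, 10.1- and 5.62-fold lower. LOC105443959 went the other way with 66 and 44 UMIs, a ratio of 5.16 (3.47 to 7.73).

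Cells with 2 or more GATAc UMIs were 1 of 2 in the gcm MO library, 13 of 53 in the control MO library (24.5%, 95% interval 13.8 to 38.3), 0 of 15 at 72 hpf and 1 of 23 at 48 hpf. In other kept cells no cell had more than 5 GATAc UMIs, against up to 19 in a skeletogenic cell. The gcm MO cell and the 48 hpf cell with 2 or more GATAc UMIs had FGF as well, at 12 and 6 UMIs.

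At 72 hpf, 5 of the 15 selected cells had no msp130 UMI, and these had 5 to 28 rule-gene UMIs. In 3 of them SM30A, SpP19L, COLP3alpha, FGF and msp130 were all at 0, and the identifier LOC752246 had 18, 314 and 1729 UMIs together with 1, 18 and 94 of gpb5, which encodes a glycoprotein hormone beta subunit. These 3 cells had 766, 3591 and 9936 UMIs and carried 2061 of the 2066 LOC752246 UMIs of all 72 hpf skeletogenic cells. Among the other kept cells of the 72 hpf library, 39 of 6651 had 10 or more LOC752246 UMIs. The profile of these 3 cells thus went against the skeletogenic label, apart from SM50 (29 UMIs) and SM37 (11 UMIs). Another of the 5 had 794 MTa UMIs. At 48 hpf 1 cell carried 344 ARS and 239 MTa UMIs with 2 of SM30A. The levels at 72 hpf given above are over all 15 cells. Over the 10 cells with msp130 the SM30A level was 79389 CPM, against 44784 CPM over all 15, and the FGF level 5893 CPM, against 3290 CPM. The fit over cells with msp130 tested 6765 genes. Of the 100 named or listed calls, those of genes that it did not test were not counted. Among the rest 1 call was lost, that of the germline marker vasa.

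Skeletogenic cells were 0.371% of kept cells in the gcm MO library (2 of 539, exact 95% binomial interval 0.0450 to 1.33), 1.59% in the control MO library (53 of 3323, 1.2 to 2.08), 0.225% at 72 hpf (15 of 6666, 0.126 to 0.371) and 0.445% at 48 hpf (23 of 5170, 0.282 to 0.667). These intervals cover counting error only. The share in the control MO library was 3.59 times that of uninjected embryos at 48 hpf (2.16 to 6.13). The control MO library was of whole embryos and the other enriched for ectoderm, so injection and dissociation cannot be told apart here. The share in gcm MO embryos was 0.233 times that in control MO embryos (0.0275 to 0.883), but the interval included 1 with a limit of 3 rule-gene UMIs (0.448, 0.118 to 1.21), when cells were thinned to 500 UMIs (0.363, 0.0422 to 1.41) and when all deposited cells were counted (0.567, 0.200 to 1.31). The paper reports that cells of gcm MO embryos tolerated dissociation poorly and lysed more readily. A further 4 gcm MO cells met the limit of 5 rule-gene UMIs but had under 400 genes and were not kept. Whether either lowered the share was not tested. The share at 72 hpf was 0.506 times that at 48 hpf (0.245 to 1.01), or 0.353 (0.149 to 0.776) over cells with msp130.

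**Figure D5:**
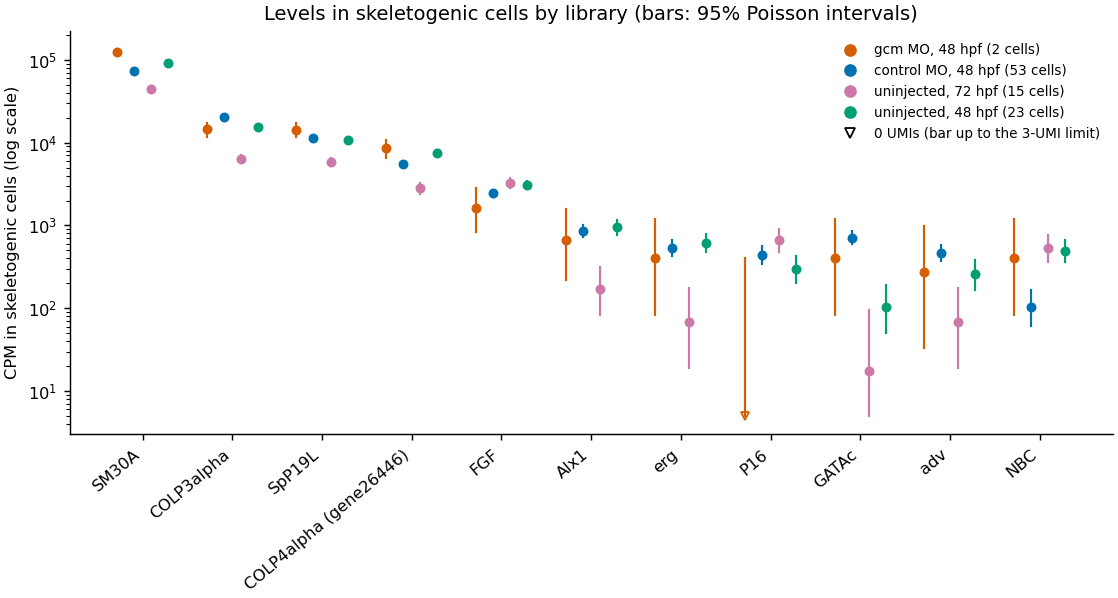
Level in skeletogenic cells (CPM, log scale) of 11 genes by library, with bars for 95% Poisson intervals and a triangle for P16, which had 0 UMIs in the 2 gcm MO cells. Alx1 and erg were lowest at 72 hpf, GATAc was highest and NBC lowest in the control MO library, and FGF at 72 hpf was 1.07 times its 48 hpf level over all cells shown.

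Between uninjected stages, 506 genes had at least 50 UMIs in skeletogenic cells of both libraries together, and the counting interval of the ratio of 72 over 48 hpf lay above 1 for 125 and below 1 for 169. Without the cells that lacked msp130 these counts were 68 and 87. The SM30A level was 44784 CPM in 72 hpf cells, against 90757 CPM in 48 hpf cells, a ratio of 0.49 (95% interval 0.47 to 0.52), which became 0.87 (0.83 to 0.91) over cells with msp130. SpP19L was at a ratio of 0.55 (0.48 to 0.62), or 0.99 (0.88 to 1.12) over those cells, and COLP3alpha at 0.41 (0.37 to 0.46), or 0.72 (0.64 to 0.80). For these structural genes the size of the stage difference thus depended on which cells were counted.

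Of the regulators, Alx1 and erg were lower at 72 hpf, and the intervals of Sp-Smad2/3 (0.76, 0.34 to 1.62) and dri (1.83, 0.71 to 4.81) included 1. Over cells with msp130 dri had 0 UMIs at 72 hpf, against 10 at 48 hpf. The Alx1 level was 172 CPM in 72 hpf cells, against 963 CPM in 48 hpf cells, a ratio of 0.18 (95% interval 0.083 to 0.34), and 0.33 (0.16 to 0.65) over cells with msp130. Erg was at 68.9 and 621 CPM, a ratio of 0.11 (0.029 to 0.30), and 0.20 (0.051 to 0.53). P16 went the other way, with 672 CPM in 72 hpf cells, against 300.1 CPM in 48 hpf cells, a ratio of 2.24 (1.35 to 3.75), or 1.13 without the highest cell of each library and 3.87 (2.33 to 6.49) over cells with msp130. FGF was at a ratio of 1.07 (0.88 to 1.28), and 1.92 (1.59 to 2.32) over cells with msp130. MTa had 25509 CPM in 72 hpf cells, against 4005 CPM in 48 hpf cells, a ratio of 6.37 (5.69 to 7.14) that became 2.45 over cells with msp130, while in other kept cells it was at 82905 and 26892 CPM. The 5 highest ratios were all of genes of the 3 cells described above (gpb5, LOC764556, LOC763123, LOC752400 and LOC752246). The 5 lowest were those of LOC592912 (0.041), LOC593238 (0.070), LOC577676 (0.083), LOC105443959 (0.089) and erg. Over cells with msp130 the ratio was 0.071 for LOC592912, 0.041 for LOC593238 and 0.15 for LOC105443959, and LOC577676 had 0 UMIs at 72 hpf. Over those cells NBC was at 1.47 (0.86 to 2.45) and SPARC (gene2694) at 2.48 (1.93 to 3.20), against 1.07 and 1.38 over all cells.

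Between control MO embryos and uninjected embryos at 48 hpf, 840 genes reached 50 UMIs, with 234 intervals above 1 and 145 below. The intervals of SpP19L, Alx1 and erg included 1. SpP19L was at a ratio of 1.06 (95% interval 0.98 to 1.14), Alx1 at 0.90 (0.68 to 1.18), erg at 0.86 (0.61 to 1.22), whereas SM30A was at 0.81 (0.79 to 0.83) and COLP3alpha at 1.31 (1.23 to 1.39). With the 6 cells above 2500 genes included, which lay mostly in the 48 hpf library, SM30A was at 1.21 (1.17 to 1.24) and its direction reversed. GATAc was at 714 CPM in control MO cells and 103 CPM in uninjected cells, a ratio of 6.90 (3.62 to 14.8). NBC was at 105 CPM in control MO cells and 497 CPM in uninjected cells, a ratio of 0.21 (0.11 to 0.37), SPARC (gene2694) at 0.38 (0.29 to 0.49) and LOC576354 at 0.24 (0.21 to 0.27). The highest ratios were of LOC574568 (67 UMIs against 0), LOC100889594 (32.7), LOC100892621 (31.2), LOC577725 (29.1) and LOC752244 (18.0). The other kept cells of the 2 libraries also differed for each of these. LOC574568 was at 1174 CPM in other control MO cells and 4.78 CPM in other uninjected 48 hpf cells, LOC100889594 at 46.8 and 19 CPM, LOC100892621 at 209 and 11.1 CPM, LOC577725 at 486 and 167 CPM, and LOC752244 at 349 and 57.6 CPM. The lowest were of LOC588206 (0.078), EGF2 (0.11), LOC100890099 (0.13), LOC576213 (0.13) and LOC100892256 (0.15), and EGF2 and LOC100890099 had 167 of 288 and 243 of 327 of their uninjected UMIs in the 1 cell rich in ARS.

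The 2 gcm MO cells allowed few statements against control MO cells. SM30A was at 124830 CPM in them and 73369 CPM in control MO cells, a ratio of 1.70 (95% interval 1.59 to 1.82), and had 97 and 826 UMIs in the 2 cells. COLP3alpha was at 0.71 (0.58 to 0.86), but at 1.12 when each cell counted equally. Alx1 had 5 UMIs, all in 1 cell, at a ratio of 0.78 (0.25 to 1.88), and FGF had 12 UMIs, also in 1 cell, at 0.66 (0.34 to 1.17). Of 589 genes with 50 UMIs, 39 intervals lay above 1 and 46 below. The highest ratios were of LOC584491, LOC753842, LOC590968, LOC752704 and LOC100890763, and LOC584491 had 28 UMIs in 1 cell and none in the other. The lowest were of ARS, LOC100888959, LOC105443934, LOC574826 and LOC574994, each with no UMI in either cell.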

How the data were processed

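The authors prepared droplet libraries (10x Chromium, 3′ chemistry), processed reads with Cell Ranger against a custom S. purpuratus reference, and deposited UMI counts per gene and cell, 1 matrix per library, without normalization; Seurat 3.1.4 is named in the submitters' notes. The matrices were read in Python 3.11.15 with scanpy 1.11.5 and hold 32262 genes. Cells with 400 to 2500 genes were kept. Scrublet was run per library and called 5, 10, 0 and 4 doublets in the gcm MO, control MO, 72 hpf and 48 hpf libraries, none of them skeletogenic; in the largest libraries it cannot be taken to have worked, so no doublet was removed.

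Skeletogenic cells and other kept cells were summed per library. The sums were compared in edgeR by its quasi-likelihood test (TMM factors, filterByExpr, library as a term, Benjamini-Hochberg adjustment), which was first tested on simulated data. The 4 selecting genes stayed in library sizes and out of the test. The gcm MO skeletogenic sum, of 7394 UMIs, had a TMM factor of 3.02. The fit treats the 4 libraries, each of another condition, as the replicates of the contrast within a library. Its prior degrees of freedom were infinite, so a gene's own spread between libraries did not enter its SE or p-value. The SE was the size of the log2 ratio divided by the square root of the F statistic. CPM are UMIs per 1000000 UMIs of the cells named. Intervals are exact Poisson, Clopper-Pearson or conditional binomial intervals at 95%, and floors use 3 counts; both cover counting error only. Members and gene lists were chosen with earlier results of these data known. Named genes were those of the lists, the 20 highest and 10 lowest ratios with at least 20 UMIs (counted or expected) and the same direction in all libraries, and the 5 highest and 5 lowest of each ratio between libraries among genes with 50 UMIs. The groups of cells by SM30A, GATAc and gpb5, and LOC577676 within them, were chosen after their values were seen. Of 30897 LOC identifiers, 20759 were found in a Spur_5.0 gene table, which gives no names for those printed here. Alternatives changed the size factors, the tool (DESeq2), the filter, the library term, the UMI limit, the gene limits, the doublet treatment, the comparison cells and each library. The result for 1 listed gene is not reported here.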

Additional observations from a re-analysis of the deposited data

Results flagged for a closer look

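Within-library ratios of skeletogenic over other kept cells lay on opposite sides of 1, with counting intervals off 1, for 3 listed genes, and the differences themselves were not tested. COLP1alpha was at 31.3 (95% interval 26.8 to 36.3) at 72 hpf, where 184 of 193 UMIs were in 1 cell, against 0.0704 (0.0085 to 0.255) at 48 hpf. FSCN1 was at 1.22 (1.06 to 1.40) in the control MO library against 0.819 (0.681 to 0.977) in uninjected embryos at 48 hpf. MTB1 was at 0.676 (0.501 to 0.894) in the control MO library against 1.34 (1.09 to 1.63) in uninjected embryos at 48 hpf.

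Deposited cells outside the limits of 400 to 2500 genes also carried 5 or more rule-gene UMIs. There were 4 in the gcm MO library, 3 in the control MO library, 1 at 72 hpf and 11 at 48 hpf. Of these, 6 had over 2500 genes, with 7487 to 21310 UMIs, SM30A in all 6 and 42 to 397 UMIs of the aboral ectoderm gene ARS in each. The other 13 had under 400 genes, with 509 to 935 UMIs, and 10 of them had SM30A.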

How the results depend on the processing

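Of 100 named or listed genes that were called, 60 kept their call under every alternative that tested them; 30 lost it without the control MO library and 32 without the 48 hpf library, none with DESeq2's size factors. Leaving out 1 library at a time gave 279 to 715 genes higher and 368 to 1769 lower, 9 to 20 markers of other cell types lower and 8 to 21 cell cycle genes lower. The number lower was 2646 with DESeq2's size factors, 2483 with no filter on low counts and 916 with no upper limit on genes. DESeq2 itself called 449 higher and 2001 lower. The log2 ratio of LOC764556, not called in the full fit, was -10.22 over cells with msp130 and ran from -9.47 (without the 72 hpf library) to 1.39 (without the control MO library) when 1 library was left out.

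The control MO share was 1.02% after thinning each cell to 500 UMIs. With the highest doublet scores removed no gcm MO cell remained (0%, 0 of 512, exact 95% upper limit 0.718%, or 0.586% at a floor of 3 counts) and the ratio to the control MO share was 0. With no upper limit on genes, the intervals of control MO over uninjected 48 hpf lay above 1 for 376 genes and below for 247, and SM30A was at 1.21, COLP4alpha (gene26446) at 1.08 and FGF at 1.09, all reversed. For 72 over 48 hpf the counts were 68 and 87 over cells with msp130, and 67 lay above 1 without the highest cell of each library. For gcm MO over control MO they were 17 and 11 without the highest cell, where LOC584491, LOC753842 and LOC590968 were at 0, SpP19L at 0.271 and COLP3alpha at 1.56; with each cell counted equally SpP19L was at 0.788 and COLP3alpha at 1.12. SM30A was 19.2 times higher in the class with the most rule-gene UMIs than in the lowest, and 8.72 times when cells were divided by percentage. No paired analysis was possible because there was 1 library per condition; the library term already pairs the 2 sums of a library.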
